A study of Mus musculus with 24 samples.

Results

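The genes described here are 5 inhibitors of cyclin-dependent kinases (CDKs): Cdkn2a, Cdkn2b, Cdkn2c and Cdkn2d of the INK4 family and Cdkn1b of the KIP family. They were chosen by name. Every probe on the array whose gene name equals one of the 5 symbols was taken, which gave 8 of the 55681 probes that are not controls, for 5 of 30176 named genes. Cdkn2a, Cdkn2b and Cdkn1b have 2 probes each, and Cdkn2c and Cdkn2d have 1 each. Their levels were followed in mammary glands of female BALB/c mice, a common inbred laboratory strain, and of female SPRET/EiJ mice, an inbred strain of another mouse species, Mus spretus. At an age of 8 to 9 weeks the mice received either low-dose ionizing radiation (LDIR), a single X-ray dose of 10 cGy to the whole body, or a sham exposure. BALB/c glands were collected 2, 4 and 8 weeks later and SPRET/EiJ glands 4 weeks later. The 8 groups of strain, treatment and time held 3 mice each, and each mouse was measured on its own 1-colour Agilent array, 24 in all. The labels name no engineered allele and no other agent.

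INK4 proteins bind CDK4 and CDK6 and keep them from pairing with D-type cyclins, so that the retinoblastoma protein stays unphosphorylated and E2F targets stay off. Cdkn2a encodes p16INK4a and, in another reading frame, p19ARF, which restrains MDM2 and so acts on p53. Cdkn2b encodes p15INK4b, an effector of TGF-beta signalling. Cdkn2c encodes p18INK4c and Cdkn2d encodes p19INK4d. KIP proteins bind cyclin-CDK2 complexes, and Cdkn1b encodes p27KIP1, whose amount is set largely by degradation through SKP2. In the mammary gland these proteins limit the divisions of epithelial cells. BALB/c is known to carry sequence variants of Cdkn2a, which bear on tumour susceptibility in that strain.

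What each probe can detect is set by where it lies, so the first 30 of the 60 bases of each are shown, 5′ to 3′, as the array files give them. Coordinates are those of mm9, and no letters are marked.
Cdkn2a probe 1: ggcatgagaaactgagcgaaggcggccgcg
Cdkn2a probe 2: cttctagcgatgctagcgtgtctagcatgt
Cdkn2b probe 1: ccagtgatgaattgtagtggtagcaggtta
Cdkn2b probe 2: ttgagcctcaccttgaagccaaggggatca
Cdkn2c probe 1: cagtgtctgacttggagactttgttttaaa
Cdkn2d probe 1: gataacatgagttcatttttctttcttgga
Cdkn1b probe 1: gtgcttaaaaggttgcatactgagccaagt
Cdkn1b probe 2: attagccaagcaaccataagactctagtca

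The Cdkn2a probes lie at chr4:88920405-88920464 (probe 1) and chr4:88920543-88920602 (probe 2) on the minus strand. The files list both of them under both RefSeq transcripts of the gene, so p16INK4a and p19ARF transcripts cannot be told apart here. Of the 60 bases of Cdkn2a probe 1, 29 are G or C. The Cdkn2b probes lie on the same strand at chr4:88952276-88952335 (probe 1) and chr4:88952720-88952779 (probe 2). Cdkn2c was read at chr4:109333508-109333567 and Cdkn2d at chr9:21092934-21092993, both on the minus strand. Cdkn1b was read on the plus strand at chr6:134875424-134875483 (probe 1) and chr6:134873606-134873665 (probe 2). The files list Cdkn1b probe 2 under an Ensembl transcript and cDNA clones but not under the RefSeq transcript. All the probes were designed on the mm9 genome, and whether they match the SPRET/EiJ sequence was not tested.

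Levels are log2 intensities from which the array's own 75th percentile was subtracted, so a level of 0 equals the 75th percentile. Levels of different probes are not compared, since each probe has its own brightness. Between 57.1% and 72.6% of all probes were well above background on an array. Of the 8 member probes, 6 were measured well above background on each of the 24 arrays. Cdkn2a probe 1 was so on 23 of 24, with SPRET/EiJ 4-week LDIR array C as the exception. Cdkn2a probe 2 was well above background on 0 of 24 arrays, with levels from -8.15 to -6.02, and no fold is given for it.

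The arrays lay on 3 slides of 8. Slide 1 held all 2-week arrays and 4-week sham arrays A and B. Slide 2 held 4-week sham array C, the 4-week LDIR and 8-week sham arrays and 8-week LDIR array A, all BALB/c. Slide 3 held 8-week LDIR arrays B and C and all SPRET/EiJ arrays. Of the markers of mammary epithelium (Krt8, Krt18, Krt14, Krt5, Epcam, Cdh1), 6 of 6 were well above background on every array. In 3 arrays the summed level of 7 lymphocyte markers (among them Ptprc, Cd3e, Cd79a, Cd79b, Ms4a1 and Cd8a) stood apart. These were BALB/c 8-week sham array A, BALB/c 8-week LDIR array B and SPRET/EiJ 4-week LDIR array A. Their log2 sums were 6.66 to 6.98, against 2.50 to 3.85 on the other 21 arrays, where 5 to 7 of the 7 markers were above background. White adipocyte markers summed to 8.95 to 9.40 on the 3 arrays and to 9.84 to 10.9 on the others.

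Several INK4 genes had their extreme levels on those 3 arrays. Cdkn2d was at 2.66 to 3.02 there and at 1.53 to 2.40 on the other 21 arrays. Cdkn2c was at 2.17 to 2.25 there and at 3.11 to 4.40 elsewhere. In neither gene did the ranges overlap, and Cdkn2d was high where Cdkn2c was low. Cdkn2a probe 1 was at -0.98 to -0.58 on the 3 arrays and at -5.38 to -1.40 on the others, again without overlap. Cdkn1b probe 2 was at -2.07 to -1.74 against -4.16 to -2.28. The ranges of Cdkn2b probe 1 (0.10 to 1.20 against 0.47 to 1.65) and Cdkn1b probe 1 (2.59 to 3.17 against 1.47 to 2.86) overlapped. These arrays were set apart by their values, so the ranges are a description and were not tested. In whole tissue, fewer cells of a type and less RNA per cell cannot be told apart.

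**Figure D1:**
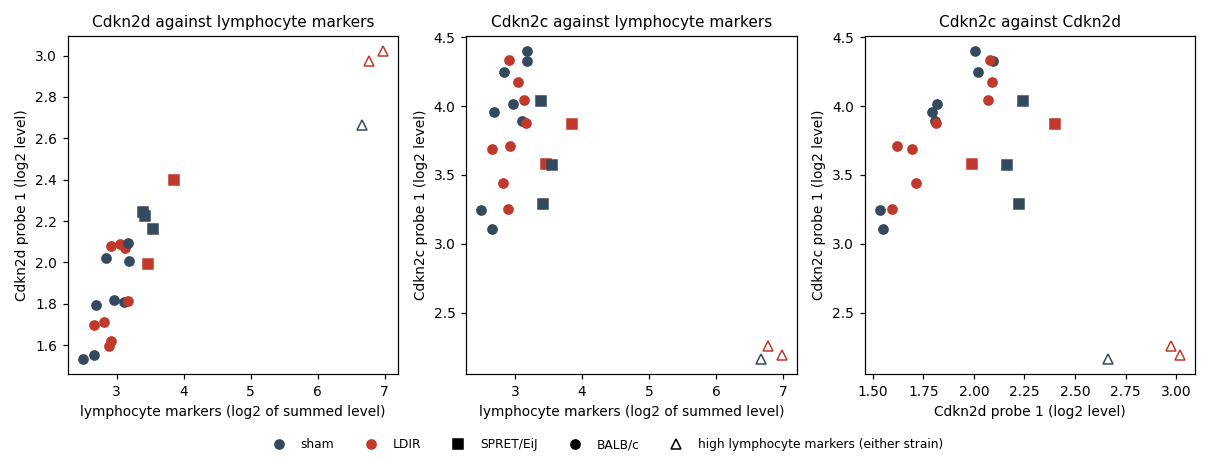
Levels of Cdkn2d and Cdkn2c (log2 intensity minus the array's 75th percentile) against the log2 summed level of 7 lymphocyte markers, and Cdkn2c against Cdkn2d, with 1 point for each of the 24 arrays. Open triangles are the 3 arrays with lymphocyte sums of 6.66 to 6.98, where Cdkn2d was at 2.66 to 3.02 and Cdkn2c at 2.17 to 2.25.

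When the 8 groups were ranked by mean level, every neighbouring pair of groups had overlapping arrays, for each of the 8 probes. Cdkn2a probe 1 spread most. It spanned 4.79 log2 units over the 24 arrays, more than 97.5% of the probes that were above background on all arrays. It is not itself one of those, being above background on 23 of 24. On the 21 arrays without high lymphocyte markers it ran from -5.38 to -1.40. Its group means ran from -4.66 ± 0.36 (SD, n = 3) in SPRET/EiJ sham glands to -1.67 ± 0.82 (SD, n = 3) in BALB/c 8-week LDIR glands. Cdkn2b probe 1 ran from 0.37 ± 0.23 (SD, n = 3) in BALB/c 8-week LDIR glands to 1.37 ± 0.32 (SD, n = 3) in SPRET/EiJ sham glands. Cdkn2c ran from 2.84 ± 0.59 (SD, n = 3) in BALB/c 8-week sham glands to 4.18 ± 0.20 (SD, n = 3) in BALB/c 2-week sham glands. The lowest Cdkn2d mean was 1.83 ± 0.24 (SD, n = 3), in BALB/c 4-week LDIR glands, and the highest was 2.45 ± 0.49 (SD, n = 3), in SPRET/EiJ LDIR glands. Cdkn1b probe 1 was lowest in SPRET/EiJ LDIR glands, at 1.92 ± 0.59 (SD, n = 3), and highest in BALB/c 8-week LDIR glands, at 2.94 ± 0.20 (SD, n = 3).

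**Figure D2:**
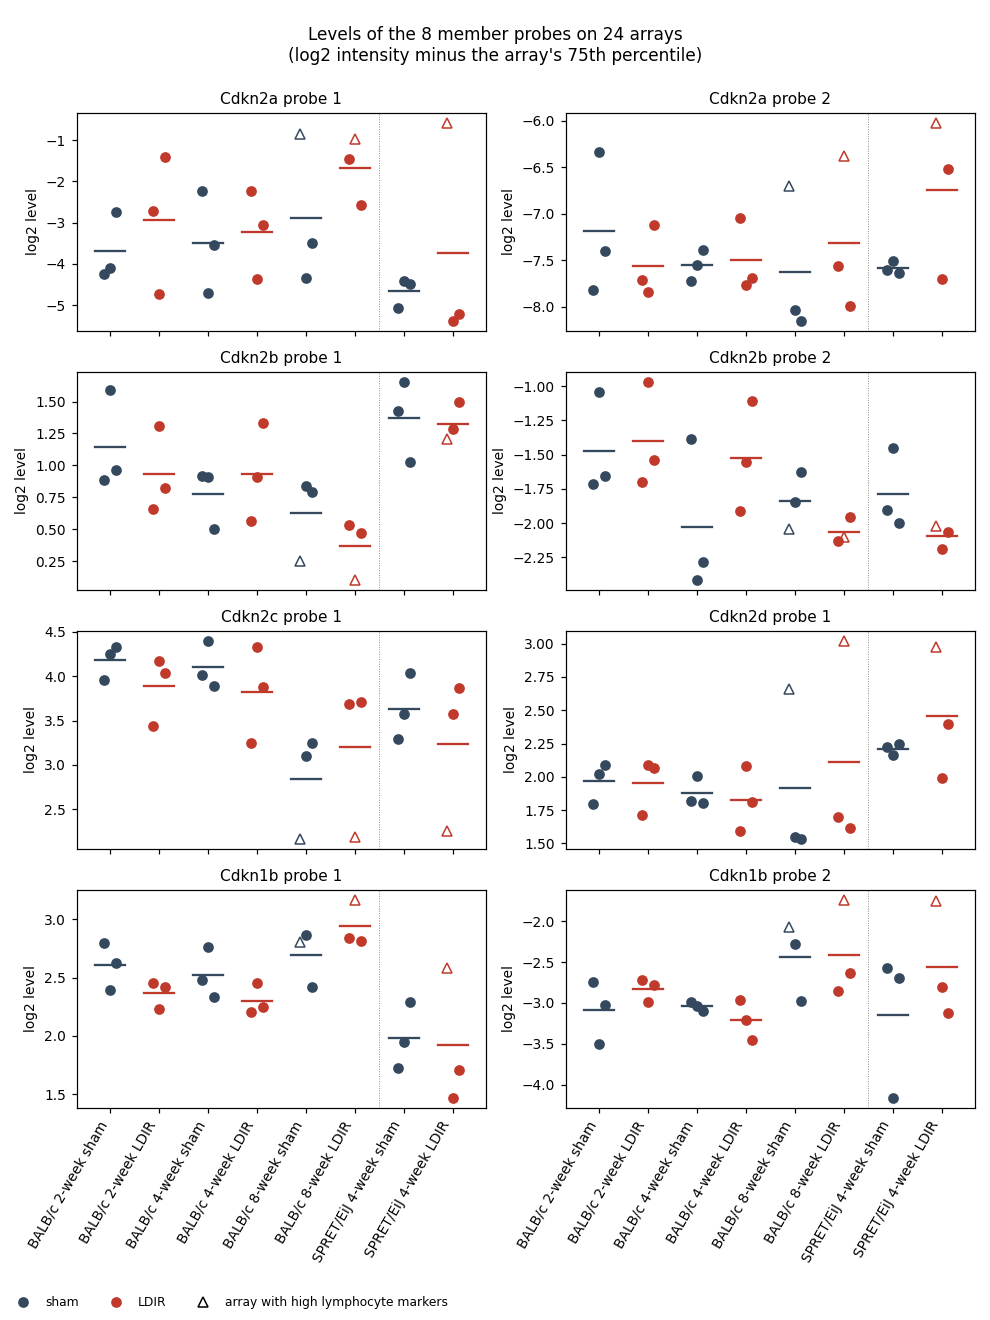
Levels of the 8 member probes (log2 intensity minus the array's 75th percentile) in the 8 groups, with 1 point for each array, a bar at the mean of the 3 arrays of a group and open triangles for the 3 arrays with high lymphocyte markers. Within each probe, groups next to each other in the order of their means overlapped.

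To ask whether LDIR changed these inhibitors, LDIR and sham glands were compared at each time with limma's moderated test. A probe was called at an unadjusted p under 0.05 with a difference over 1.5-fold. None of the 5 genes was called at any time in either strain. Of the 8 member probes, 0 passed in BALB/c at 2 weeks, at 4 weeks or at 8 weeks, or in SPRET/EiJ, while 3.13%, 4.78%, 1.8% and 2.2% of all probes did. At an unadjusted p under 0.05 alone, 0 of the 8 passed in each of these 4 comparisons, against 5.01%, 6.09%, 1.86% and 2.21% of all probes. The methods' t-test also called 0 of the 8 in each. LDIR and sham arrays did not overlap for 0 of the 8 in BALB/c at each time and for 1 in SPRET/EiJ, against 11.6%, 12.2%, 4.84% and 5.84% of all probes. No probe on the array passed a Benjamini-Hochberg adjusted p of 0.05 in any of them. Differences below are LDIR minus sham on the log2 scale, with intervals from unpaired fits. Mice given the same treatment are separate animals, and an exact permutation test of 3 against 3 arrays gives no two-sided p below 0.1. At 4 weeks in BALB/c, LDIR arrays lay on slide 2 and sham arrays on slides 1 and 2, so treatment and slide are partly confounded. At 8 weeks sham arrays lay on slide 2 and LDIR arrays on slides 2 and 3, with the same limit.

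Cdkn2a probe 1 gave the largest LDIR differences at 2 and 8 weeks and in SPRET/EiJ, and the largest errors in all 4 comparisons. At 2 weeks its levels were -2.71, -4.73 and -1.40 in LDIR glands and -4.25, -4.10 and -2.75 in sham glands. The lowest and the highest of these 6 values were both from LDIR glands. The difference was 0.75 (SE 0.87; 95% interval -1.35 to 2.85; limma adjusted p = 0.894). Without LDIR array B it was 1.64 and was then called (adjusted p = 0.985), and without LDIR array C it was -0.02. At 4 weeks the levels were -2.25, -4.36 and -3.07 after LDIR and -2.24, -4.72 and -3.54 after sham, nearly the same range. That difference was 0.28 (SE 0.76; 95% interval -1.55 to 2.10).

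At 8 weeks Cdkn2a probe 1 was at -1.45, -0.98 and -2.57 in LDIR glands and at -0.85, -4.35 and -3.48 in sham glands. Sham array A, one of the arrays with high lymphocyte markers, held the highest level of the 6, and the groups overlapped through it. The difference was 1.23 (SE 0.97; 95% interval -1.14 to 3.59; limma adjusted p = 1). Without sham array A it was 2.25 (adjusted p = 0.951). Without both high-lymphocyte arrays, which left 2 arrays in each group, it was 1.90 (adjusted p = 0.968). Both of these passed the unadjusted thresholds, with no overlap between the groups. Over all alternatives the difference ran from 0.50 to 2.25. In SPRET/EiJ the levels were -0.58, -5.38 and -5.22 after LDIR and -5.06, -4.41 and -4.50 after sham. Apart from the high-lymphocyte LDIR array A, at -0.58, both LDIR arrays lay below all the sham arrays. Of these, LDIR array C, at -5.22, was not well above background. The SPRET/EiJ difference was 0.93 (SE 1.22; 95% interval -1.96 to 3.82), and without LDIR array A it was -0.64.

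Cdkn2b, the TGF-beta responsive p15INK4b gene, differed little by treatment. Its probe 1 differed by -0.22 at 2 weeks (95% interval -0.86 to 0.43), by 0.16 at 4 weeks (-0.44 to 0.76) and by -0.26 at 8 weeks (-0.94 to 0.42) in BALB/c, and by -0.04 in SPRET/EiJ (-0.68 to 0.59). These intervals exclude a doubling in either direction at each time. Cdkn2b probe 2 was at -1.91, -1.56 and -1.11 in 4-week LDIR glands and at -1.39, -2.42 and -2.29 in 4-week sham glands. Sham array A lay within the LDIR range and the other sham arrays lay below it. The difference was 0.50 (SE 0.34; 95% interval -0.33 to 1.33), and without sham array A it was 0.83 and was called. In SPRET/EiJ probe 2 was at -2.02, -2.19 and -2.07 after LDIR, with sham arrays A and B at -1.91 and -1.45 and sham array C just above the highest LDIR array. All the LDIR arrays thus lay below all the sham arrays, with a difference of -0.31 (95% interval -0.91 to 0.30). It differed by 0.07 and -0.22 in BALB/c at 2 and 8 weeks.

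Cdkn2c and Cdkn2d, which encode p18INK4c and p19INK4d, overlapped between LDIR and sham at every time. Cdkn2c was at 3.44, 4.17 and 4.04 in 2-week LDIR glands and at 3.96, 4.25 and 4.33 in sham glands, a difference of -0.29 (95% interval -0.87 to 0.28). The difference was -0.28 at 4 weeks (-1.02 to 0.46), 0.36 at 8 weeks (-0.96 to 1.68) and -0.40 in SPRET/EiJ (-1.50 to 0.70). Without the high-lymphocyte LDIR array A, which held the lowest SPRET/EiJ level at 2.25, the SPRET/EiJ difference turned to 0.09. Cdkn2d differed by -0.01 at 2 weeks (95% interval -0.44 to 0.41) and by -0.05 at 4 weeks (-0.49 to 0.40). These were the narrowest intervals of the INK4 genes in their comparisons. At 8 weeks Cdkn2d was at 1.70, 3.02 and 1.62 after LDIR and at 2.66, 1.55 and 1.53 after sham. In each group the highest value was from the high-lymphocyte array, and the difference was 0.20 (95% interval -1.09 to 1.48). Without LDIR array B it was -0.26, and without both high-lymphocyte arrays 0.11. In SPRET/EiJ it was 0.24 (-0.48 to 0.97), and without array A it was -0.01.

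Cdkn1b, the p27KIP1 gene, was measured with intervals within 1 log2 unit on either side by probe 1. Probe 1 was at 2.46, 2.23 and 2.42 in 2-week LDIR glands and at 2.80, 2.40 and 2.62 in sham glands, a difference of -0.24 (95% interval -0.64 to 0.17). It differed by -0.22 at 4 weeks (-0.66 to 0.21), by 0.24 at 8 weeks (-0.37 to 0.85) and by -0.06 in SPRET/EiJ (-0.92 to 0.79). The sign at 8 weeks was opposite to that at 2 and 4 weeks, and neither passed the test. Probe 2 differed by 0.26, -0.17 and 0.03 in BALB/c at the 3 times and by 0.59 in SPRET/EiJ.

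**Figure D3:**
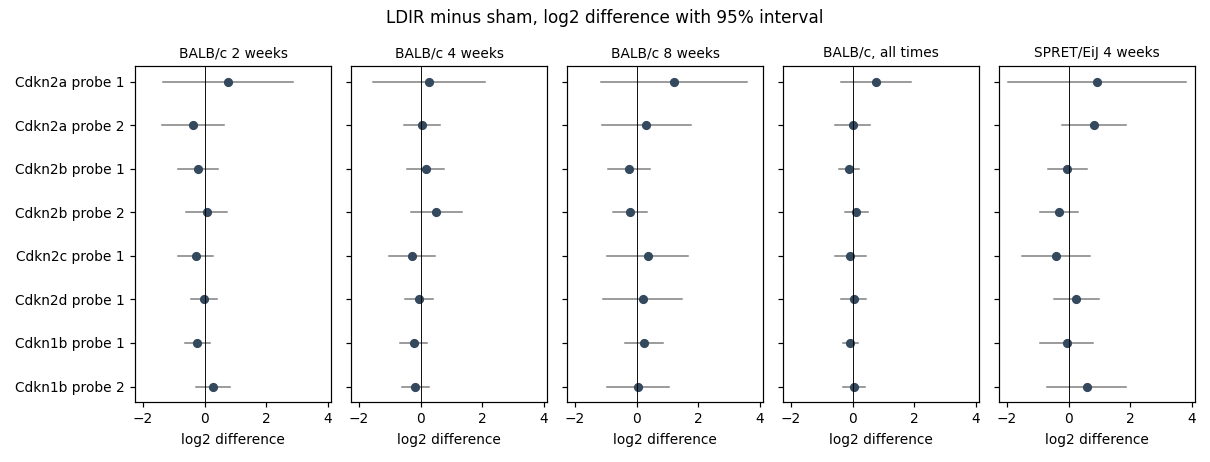
LDIR minus sham difference (log2) of the 8 member probes in each comparison, with 95% intervals from limma as lines. Every interval includes 0, and those of Cdkn2a probe 1 are the widest of its own comparison.

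When the 18 BALB/c arrays were fitted together with time as a factor, 0 of 8 member probes were called, against 1.08% of all probes. Cdkn2a probe 1 differed by 0.75 between LDIR and sham (SE 0.54; 95% interval -0.39 to 1.89; limma adjusted p = 0.997). For the other 7 probes the difference lay between -0.10 and 0.12. The Cdkn2b probe 1 interval was -0.43 to 0.22, that of Cdkn2c -0.57 to 0.42, that of Cdkn2d -0.36 to 0.45 and that of Cdkn1b probe 1 -0.31 to 0.17. A 1.5-fold difference in either direction lay outside each of these 4 intervals. A 1.5-fold rise lay inside that of Cdkn2a probe 1.

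Whether the LDIR difference differed between strains was tested with the strain by LDIR interaction at 4 weeks. Of the 8 member probes 0 were called, against 3.53% of all probes. The largest interaction was that of Cdkn2b probe 2, 0.81 higher in BALB/c (SE 0.43; 95% interval -0.14 to 1.76; limma adjusted p = 0.957). It was called with slide as a fixed block, at 1.07, without BALB/c sham array A, at 1.13, and without BALB/c LDIR array A, at 1.00. The other probe of the gene, Cdkn2b probe 1, gave 0.20 (95% interval -0.59 to 1.00). Without the high-lymphocyte array the interaction of Cdkn2a probe 1 turned from -0.65 to 0.92, that of Cdkn2c from 0.12 to -0.37 and that of Cdkn1b probe 1 from -0.16 to 0.17.

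The baseline comparison asked how sham glands of the strains differed at 4 weeks, the only time with both. Here a probe was called at an unadjusted p under 0.001 with more than 1.5-fold. Of the 8 member probes 0 were called and 0 passed an adjusted p of 0.05, against 8.85% and 18.7% of all probes, and the methods' t-test also called 0. At an unadjusted p under 0.05, 2 of the 8 passed, against 31.9% of all probes. Groups did not overlap for 3 of the 8, against 36.7% of all probes. At 4 weeks BALB/c arrays lay on slides 1 and 2 only and SPRET/EiJ arrays on slide 3 only.

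Cdkn2b probe 1 was lower in BALB/c, with levels of 0.92, 0.91 and 0.51 in BALB/c and 1.43, 1.65 and 1.02 in SPRET/EiJ sham glands. The difference, BALB/c minus SPRET/EiJ, was -0.59 (SE 0.23; 95% interval -1.15 to -0.03; limma adjusted p = 0.137). Cdkn2b probe 2, with -0.24 (95% interval -1.03 to 0.54), overlapped between the strains. Cdkn1b probe 1 had levels of 2.48, 2.76 and 2.34 in BALB/c and 1.73, 1.95 and 2.29 in SPRET/EiJ, without overlap. Its difference was 0.54 (SE 0.22; 95% interval 0.01 to 1.06; limma adjusted p = 0.147). Cdkn1b probe 2 gave 0.11 (95% interval -0.94 to 1.15), so the probes of neither gene gave the same size. Cdkn2d was at 1.82, 2.01 and 1.81 in BALB/c and at 2.22, 2.16 and 2.25 in SPRET/EiJ, also without overlap. It differed by -0.33 (SE 0.15; 95% interval -0.70 to 0.04; limma adjusted p = 0.198). Cdkn2a probe 1 and Cdkn2c overlapped between the strains, with differences of 1.16 (SE 0.61; 95% interval -0.32 to 2.63) and 0.47 (SE 0.25; 95% interval -0.14 to 1.09). With slide as a fixed block the signs of Cdkn2d, at 0.22, and of Cdkn2c, at -0.48, turned. The step from slide 2 to slide 3 in that fit rests on BALB/c 8-week LDIR glands, the only group on both. Array B of that group, on slide 3, had high lymphocyte markers, with Cdkn2d at 3.02 and Cdkn2c at 2.19. This limit holds for every strain difference given with slide as a fixed block.

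Cell type markers moved with strain as well. In sham glands the mammary epithelium sum was 4.38 to 6.72 in SPRET/EiJ and 6.79 to 7.78 in BALB/c, with 6 of 6 markers above background in both. The lymphocyte sum was 3.39 to 3.54 in SPRET/EiJ and 2.97 to 3.18 in BALB/c, and the macrophage sum was 5.18 to 5.70 and 4.12 to 5.13. Endothelial sums were 4.62 to 5.07 in SPRET/EiJ and 5.11 to 5.46 in BALB/c, and erythrocyte sums 6.41 to 7.69 and 6.05 to 6.39. The part of these cell types in the strain differences was not tested.

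In LDIR glands of the strains at 4 weeks, 0 of 8 member probes were called and 0 passed an adjusted p of 0.05, against 5.67% and 11.1% of all probes. At an unadjusted p under 0.05, 0 passed, against 25% of all probes, and groups did not overlap for 1, against 33.2%. Cdkn2b probe 1 differed by -0.39 (95% interval -1.04 to 0.26), Cdkn2d by -0.62 (-1.38 to 0.13) and Cdkn1b probe 1 by 0.38 (-0.41 to 1.18), the same signs as in sham glands. Cdkn2b probe 2, at 0.57 (-0.08 to 1.21), had the opposite sign to that in sham glands. Cdkn2c differed by 0.59 (-0.59 to 1.77) and Cdkn2a probe 1 by 0.50 (-2.64 to 3.65). Without SPRET/EiJ LDIR array A, which had high lymphocyte markers, Cdkn2a probe 1 differed by 2.07 (limma adjusted p = 0.0792), Cdkn2c by 0.10 and Cdkn1b probe 1 by 0.71 (adjusted p = 0.0555), and none was called. Cdkn2a probe 1 differed by -0.32 without SPRET/EiJ LDIR array B, by -0.24 without array C and by -0.20 with normexp background correction.

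The known partners of these inhibitors were counted over 61 genes in 7 lists: other CDK inhibitors, G1 cyclins and CDKs, pocket proteins and E2F, control of p27, the ARF-p53 axis, regulators of the Cdkn2a/Cdkn2b locus, and proliferation. All 61 have a probe, and each gene is given by its probe with the highest mean level. Between sham glands of the strains, 3 of 61 were called, all higher in BALB/c, and 10 passed an adjusted p of 0.05, against 8.85% and 18.7% of all probes. The median difference over the 61 was 0.20. Between LDIR glands 2 were called higher and 1 lower, and 6 passed after adjustment, against 5.67% and 11.1% of all probes, with a median of -0.15.

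Among the other CDK inhibitors, Cdkn1a, the p53 target that encodes p21, was lower in BALB/c. Its levels were -1.77, -1.61 and -2.18 in BALB/c and 1.20, 2.05 and -0.36 in SPRET/EiJ sham glands. The groups did not overlap, and the SPRET/EiJ arrays were spread over more than 2 log2 units. The difference was -2.82 (SE 0.59; limma adjusted p = 0.0223). In LDIR glands it was -2.29 (SE 0.27; limma adjusted p = 0.00378), which was called. With slide as a fixed block the LDIR value was -2.78 with an adjusted p of 0.0733. The other probes of Cdkn1a, which were above background on 9 and 20 of 24 arrays, differed by -0.74 and 0.50 in sham and by -1.42 and 0.68 in LDIR glands, and none passed after adjustment. Cdkn1c, the p57KIP2 gene, was also lower in BALB/c sham glands, by -0.92 (SE 0.25; limma adjusted p = 0.049).

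Of the 9 genes for control of p27, 2 were called higher in BALB/c sham glands. Foxo3, a transcription factor that activates Cdkn1b, differed by 2.79 (SE 0.41; limma adjusted p = 0.00626), and by 2.63 in LDIR glands (adjusted p = 0.00533). Foxo3 missed the threshold for a call in sham glands when any of 4 of the 6 arrays was left out, at 2.37 to 3.02, with adjusted p of 0.00827 to 0.0260. Fbxw7, a substrate receptor for degradation of cyclin E, differed by 1.84 (SE 0.19; adjusted p = 0.00168), and by 1.27 in LDIR glands (adjusted p = 0.0263). Each has a second probe above background on all 24 arrays, and these gave -0.54 for Foxo3 and -0.08 for Fbxw7 in sham glands and 0.07 and -0.99 in LDIR glands. None of these passed after adjustment, and only that of Foxo3 in LDIR glands had the sign of the first probe. With slide as a fixed block, Foxo3 differed by 2.14 in sham glands (adjusted p = 0.161) and by 1.61 in LDIR glands (adjusted p = 0.252). Rnf123, a subunit of a ligase for p27, differed by -0.95 in LDIR glands (adjusted p = 0.0354).

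Of the cyclins and CDKs, Ccne1 was lower (-1.02, adjusted p = 0.0117) and Cdk2 higher (0.82, adjusted p = 0.0462) in BALB/c sham glands by limma. E2f1 was higher, by 0.88 (adjusted p = 0.0428), and by 1.03 in LDIR glands (adjusted p = 0.0477). The Polycomb genes Bmi1 and Rnf2, repressors of the Cdkn2a locus, went opposite ways, at -0.77 (adjusted p = 0.0337) and 0.88 (adjusted p = 0.0244). A second probe for Bmi1 gave 0.05 and one for Ccne1 gave -0.56, and neither passed after adjustment. Pcna, a replication clamp, was the 1 proliferation gene of 10 that was called. It was at 3.18, 2.93 and 2.76 in BALB/c and at 1.07, 1.29 and 1.06 in SPRET/EiJ. Its difference was 1.82 (SE 0.18; adjusted p = 0.00156) in sham glands and 1.94 (adjusted p = 0.00408) in LDIR glands. The direct targets of INK4 proteins were not called: Cdk4 differed by 0.13 and Cdk6 by 1.17 in sham glands, and Ccnd1, which encodes cyclin D1, by -0.16. Cdk6 was above background on 2 of 3 BALB/c and 1 of 3 SPRET/EiJ sham arrays.

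**Figure D4:**
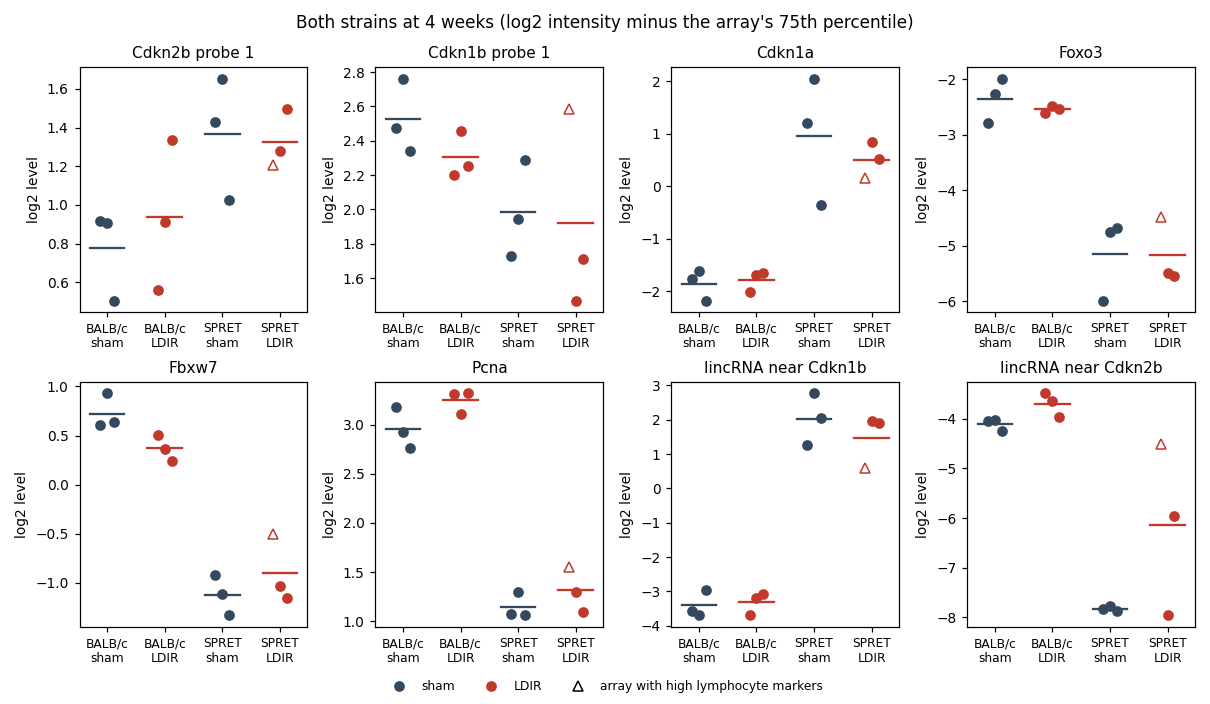
Levels in the 4 groups at 4 weeks (log2 intensity minus the array's 75th percentile) of Cdkn2b probe 1, Cdkn1b probe 1, pathway genes that differed between strains and 2 long intergenic RNAs near the member genes, with 1 point for each array and a bar at the mean of 3. In sham glands the strains did not overlap in any of the 8 panels, and the lincRNA near Cdkn1b differed by -5.43. The SPRET/EiJ sham points of the lincRNA near Cdkn2b are below background.

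After LDIR few of the 61 partners were called, against the 1.8% to 4.78% of all probes given above. At 2 weeks in BALB/c 1 of 61 was called: Mki67, which encodes the Ki-67 protein of dividing cells, was at -0.73 (SE 0.29; limma adjusted p = 0.894). Its levels were -0.33, -0.38 and 0.32 after LDIR and 1.06, 0.21 and 0.53 after sham, and the groups overlapped. A second probe for Mki67 gave -0.79 and was not called. At 4 weeks the LDIR minus sham differences of Trp53, at -0.69, and of Mdm4, which encodes an inhibitor of p53, at -0.71, were called (adjusted p = 0.783 and 0.699). A second probe for Mdm4 gave -0.19. Over all probes, calls at 4 weeks in BALB/c fell from 2664 to 670 with slide as a fixed block. At this time 2 marker sums also did not overlap between LDIR and sham glands. Brown adipocyte sums were 2.50 to 4.19 after LDIR and 4.66 to 6.17 after sham, and macrophage sums 5.20 to 5.76 and 4.12 to 5.13. Their part in these differences was not tested. At 8 weeks 0 of 61 were called. In SPRET/EiJ 1 was called: Tbx2, which encodes a repressor of the Cdkn2a locus, differed by -0.84 (adjusted p = 0.972). None of these calls passed after adjustment, and those of Mki67, Trp53 and Tbx2 were each lost on leaving out any of 4 of the 6 arrays, with ranges of -0.96 to -0.50, -0.91 to -0.45 and -1.03 to -0.52. Cdk4 differed by -0.17 to 0.04, Ccnd1 by -0.47 to 0.06, Cdk6 by -0.47 to 0.46 and Cdkn1a by -0.46 to 0.33 over the 4 comparisons, and none of them was called.

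Time after exposure gave the 1 call among the member probes. Between 4 and 2 weeks in sham BALB/c glands 0 of 8 were called, against 3.04% of all probes, and differences lay between -0.56 (Cdkn2b probe 2) and 0.20 (Cdkn2a probe 1). Without 4-week sham array A, Cdkn2b probe 2 differed by -0.88 and was called. Between 8 and 4 weeks 1 of 8 was called, against 13.8% of all probes. It was lower at 8 weeks, and 8.43% of all probes were called lower. Of the 8, 2 did not overlap between the groups, against 23.4% of all probes. The called probe was that of Cdkn2c.

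Cdkn2c was at 2.17, 3.11 and 3.24 in 8-week sham glands and at 4.02, 4.40 and 3.89 in 4-week sham glands. All the 8-week arrays lay below all the 4-week arrays. The difference, 8 minus 4 weeks, was -1.27 (SE 0.36; 95% interval -2.15 to -0.39; limma adjusted p = 0.219). Without 8-week array A, which had high lymphocyte markers, it was -0.93 (adjusted p = 0.100) and was still called. Slide 2 held all the 8-week sham arrays but only array C of the 4-week sham arrays. Within that slide, and with slide as a fixed block, the difference was -1.06 and was not called (adjusted p = 1 and 0.537). In LDIR glands Cdkn2c was at 3.69, 2.19 and 3.71 at 8 weeks, array B with high lymphocyte markers being the lowest, and at 3.25, 4.34 and 3.88 at 4 weeks. These ranges overlapped, and the pair was not tested. Cdkn1b probe 2 was higher at 8 weeks without overlap, by 0.60 (SE 0.30; 95% interval -0.13 to 1.33), and was not called.

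Genes of dividing cells were higher in the same comparison. Of the 61 partners, 15 were called higher and 3 lower at 8 weeks, and 0 passed after adjustment. Over all probes 13.8% were called, and 8.43% were called lower. Of the 10 proliferation genes 9 were called higher, and the median difference over the 10 was 1.97, while the median over the 61 was 0.27. Top2a, which encodes a topoisomerase of dividing cells, differed by 2.90 (SE 0.71), Mcm5, a subunit of the replicative helicase, by 2.42 (SE 0.59), and Ccnb1, a mitotic cyclin, by 2.35 (SE 0.58). Cdkn1a was also higher, by 1.89 (SE 0.28; limma adjusted p = 0.105), at 0.26, -0.33 and 0.20 against -1.77, -1.61 and -2.18. Without 8-week sham array A it differed by 1.79, with an adjusted p of 0.0471. Its other probes gave 0.90 and 0.35 and were not called. E2f8 and E2f2, which encode E2F factors, differed by 2.13 and 1.90, and Skp2, the receptor through which p27 is degraded, by 1.08. Trp53 was higher by 1.41 and Foxo1 by 0.87. Id1, an inhibitor of basic helix-loop-helix factors that represses Cdkn2a, was lower by -1.65, Mdm4 by -1.27 and Dmtf1, an activator of the ARF promoter, by -0.88. Of these 18 calls, 18 were kept without 8-week sham array A, 9 with slide as a fixed block and 4 within slide 2. Mcm2, another helicase subunit, Aurka, a mitotic kinase, and Birc5, which encodes survivin, differed by 1.56, 1.30 and 2.22. Mki67, Cdk1 and Ccna2, a cyclin of S phase, were at 1.72, 1.62 and 2.28. Other probes gave 0.10 and 1.89 for Cdk1 and -0.65 for Mdm4. Leaving out single arrays lost the calls of Dmtf1 (4 of 6 arrays, -1.11 to -0.71), Mki67 (3 of 6, 1.23 to 2.13), Cdk1 (2 of 6, 1.07 to 2.04) and Ccna2 (1 of 6, 1.72 to 2.78).

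Markers of several cell types also differed between 8-week and 4-week sham glands. Skeletal muscle markers summed to 4.85 to 6.89 at 8 weeks and to -0.05 to 4.31 at 4 weeks, with at least 3 of 4 markers above background in each. White adipocyte sums were 9.40 to 9.86 and 10.5 to 10.7, endothelial sums 4.14 to 4.36 and 5.11 to 5.46, and macrophage sums 5.46 to 6.04 and 4.12 to 5.13. Brown adipocyte sums were 1.76 to 3.91 and 4.66 to 6.17. None of these ranges overlapped. Mammary epithelium sums, at 7.17 to 8.14 and 6.79 to 7.78, did overlap. The part of these tissues in the Cdkn2c difference was not tested.

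**Figure D5:**
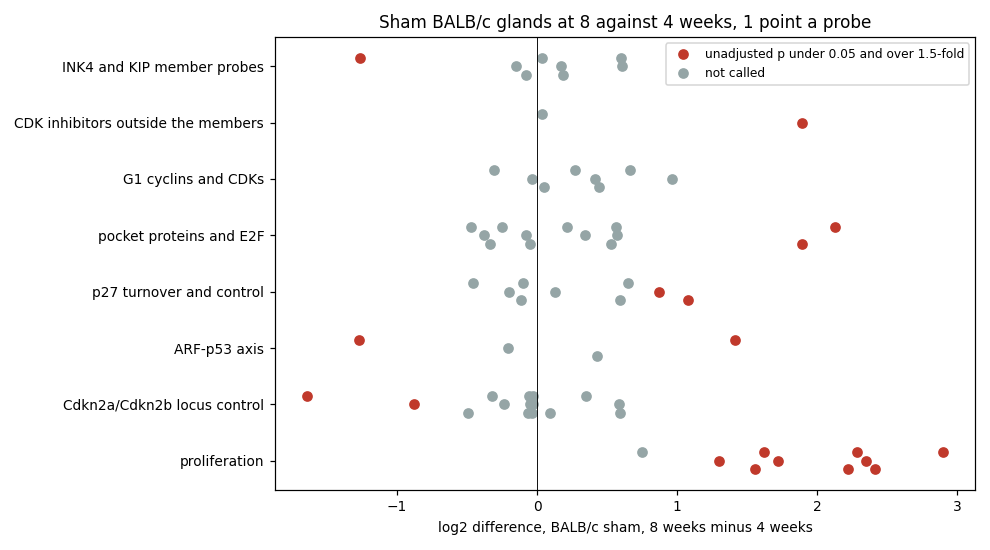
Difference between 8-week and 4-week sham BALB/c glands (log2) of the 8 member probes and of the 61 pathway genes in 7 lists, with 1 point for each probe and red for an unadjusted p under 0.05 with more than 1.5-fold. Cdkn2c, at -1.27, is the 1 red member probe, and 9 of the 10 proliferation genes are red on the side of 8 weeks.

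Pairs of member genes were set against each other over the 16 BALB/c arrays without high lymphocyte markers. The 3 arrays with high markers form a cluster of their own, so no correlation between member genes over all arrays is given. The 2 high-lymphocyte BALB/c arrays, low in Cdkn2c and high in Cdkn2d, lay off what follows. Over the other 16 Cdkn2c and Cdkn2d moved together, with Pearson's r of 0.920 and Spearman's rho of 0.909 (n = 16). Both permutation p-values were 1e-05, the smallest that 100000 permutations can give, and 1e-04 after adjustment over the 10 pairs. Without the 2 arrays farthest from the median of Cdkn2c, r was 0.887. Within slide 1 it was 0.801 (n = 8) and within slide 2 it was 0.975 (n = 7). The 16 arrays come from 6 groups, and the permutations treat them as exchangeable. Of the other 9 pairs, only Cdkn2b with Cdkn2d passed after adjustment, by rho (0.665, adjusted permutation p = 0.0302) but not by r (0.563, adjusted permutation p = 0.1145). Its r within slides was 0.523 and 0.285.

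The genes whose pattern was closest were sought among 19683 genes above background on all 18 BALB/c arrays, by Pearson's r of the levels. These values are descriptions, since the arrays share slides and the high-lymphocyte arrays. Cdkn2c was closest to Chst1 (0.979). Cdkn2d was closest to Nfatc3 (0.959), Xkrx (0.945) and Kbtbd11 (0.944). Cdkn2b was closest to Jagn1 (0.913), Arl1 (0.910) and Sec22b (0.910), and Cdkn1b to Zfp212 (0.909), Rxrb (0.898) and Vrk3 (0.890). Cdkn2a had the lowest values, with Prdm1 (0.769), Itpkb (0.756) and an unnamed transcript at 0.752. Without the 2 high-lymphocyte BALB/c arrays, 2 of the 3 closest genes of Cdkn2c, 1 each of Cdkn2b and Cdkn1b, and 0 of Cdkn2a and Cdkn2d were again among the 3 closest. The closest gene to Cdkn2d was then Cyb5 (0.968), and the closest to Cdkn2a was Ptgds (0.746). With Spearman's rho in place of r, 2 of the 3 closest were shared for Cdkn2c, 1 for Cdkn1b and 0 for the others. Over all 24 arrays 2 were shared for Cdkn2d and 0 for the others.

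The array also carries probes for long intergenic noncoding RNAs (lincRNAs), and 13 of these loci lie within 200 kb of the Cdkn2a, Cdkn2b or Cdkn1b probes. The first 30 bases of the probes with the largest strain differences are given because the result turns on these single probes.
lincRNA near Cdkn1b, chr6:134845970-134846029: gaccccaatcccccaaaccaaatatttaga
lincRNA near Cdkn2b, chr4:89130001-89130060: ttccagctcttctgttttttggcaagtgca

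The locus near Cdkn1b (chr6:134838675-134847075, F strand in the array's naming) has its brightest probe 27.6 kb from Cdkn1b probe 2. This probe was at -3.58, -3.69 and -2.94 in BALB/c and at 1.26, 2.77 and 2.04 in SPRET/EiJ sham glands. The difference was -5.43 (SE 0.42; limma adjusted p = 6.1e-04), and it was -4.80 in LDIR glands (adjusted p = 0.00146). The strains were far apart on this probe, yet the probe that ends at the base before it, at chr6:134845910-134845969, differed by -0.24 in sham glands (adjusted p = 0.785). That neighbour was above background on 19 of 24 arrays, and on 2 of 3 sham arrays in each strain at 4 weeks. Of the other 3 probes of the locus, 2 were above background on 0 arrays of either strain. The remaining 1 was above background on 7 arrays, and on 1 of 3 sham arrays in each strain at 4 weeks. It differed by -0.09 in sham glands (adjusted p = 0.850). A difference in transcript level and a difference in how the 60 bases match the SPRET/EiJ genome cannot be told apart.

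The locus near Cdkn2b (chr4:89088538-89130181, F strand) has its brightest probe 177 kb from the Cdkn2b probes. It was at -4.05, -4.03 and -4.24 in BALB/c sham glands. In SPRET/EiJ sham glands it was above background on 0 of 3 arrays, so only an approximate fold of 2.87 is given. That fold takes, as the SPRET/EiJ level, each array's dimmest signal still called well above background. This level is the most lenient limit of background, so the fold is not a strict lower bound. The difference of 3.73 (limma adjusted p = 8.8e-05) uses the SPRET/EiJ values below background. Here too, a difference in transcript level and one in how the probe matches the SPRET/EiJ genome cannot be told apart. In LDIR glands it was at -3.49, -3.64 and -3.96 in BALB/c and at -4.50, -7.97 and -5.95 in SPRET/EiJ. Of those SPRET/EiJ arrays only array A, the one with high lymphocyte markers, was above background, and the LDIR difference had an adjusted p of 0.113. The other 2 probes of the locus were above background on 0 and 1 of 3 BALB/c and on 0 of 3 SPRET/EiJ sham arrays, and no fold is given for them. Of the other 11 loci, 1 passed an adjusted p of 0.05 between sham glands, beside the 2 above, against 18.7% of all probes. It was that at chr4:89032648-89133273 on the R strand, by -0.80 (adjusted p = 0.0176). The loci nearest to Cdkn1b, about 3.7 kb away, were called higher at 8 than at 4 weeks in sham glands, by 1.72 and 1.49 (limma adjusted p = 0.232 and 0.204). Of all probes 13.8% were called in that comparison, and 1.8% for LDIR at 8 weeks. At 8 weeks these 2 loci were called lower after LDIR, by -1.16 and -0.65 (limma adjusted p = 1 for both). The first of these calls was lost without 1 and the second without any of 5 of the 6 arrays. The probes of these loci overlap, so they are close to 1 measurement. The loci chr4:89048647-89066563 on the F strand (LDIR at 2 weeks) and chr6:134875724-134931975 on the R strand (4 against 2 weeks) passed the thresholds for a call with every array of the groups compared below background, so no difference is given.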

How the data were processed

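RNA of 24 mammary glands was hybridised to 1-colour Agilent arrays. The authors deposited scanner output (Feature Extraction 10.10.1.1) whose intensity is background-subtracted, and a table of log2 values normalized to the 75th percentile in GeneSpring, used as an alternative. Column medians of that table ran from -0.218 to 0.333, and after centring 99.8558% of its values lay within 0.01 of those used here. From 59305 spots that are not controls on each array, 3777 outlier spots were left out over all arrays and 0 were saturated. Log2 intensity minus the array's 75th percentile was averaged over spots of a probe, giving 55681 probes, of which 7282 were above background on no array.

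Groups came from the sample labels. The arrays of each comparison were fitted with limma 3.58.1 in R 4.3.3, with Benjamini-Hochberg adjustment over all probes and the call thresholds of the study's methods, and figures were drawn with matplotlib 3.10.9. The fit was tested on simulated data. With 3 arrays in each group, their number limits the precision. The members, gene lists and tests were chosen with earlier results of these data known. Named are all members, pathway genes past the thresholds with Cdk4, Cdk6, Ccnd1 and Cdkn1a, the 3 closest genes of each member (some are not reported here), and lincRNA loci within 200 kb. Where several probes carry a gene's name, the one with the highest mean level stands for it, and other probes are given where the call or sign differed.

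Alternatives were quantile normalization, normexp background correction with an offset of 50, the authors' table, outlier spots kept, a filter on dim probes, the methods' t-test, all 24 arrays in one fit, slide as a fixed or random block, replicate block, the mean of a gene's probes, and each array left out. Fits without high-lymphocyte arrays and within a slide were chosen after seeing the data. Replicate letters are shared between groups. Over 29319 probes above background on all arrays, deviations of same-letter arrays at BALB/c 2 weeks correlated at 0.167 (A), 0.481 (B) and 0.171 (C). The letters were read as possible pairs there, on these values alone. At BALB/c 8 weeks the values were -0.560 (A), -0.565 (B) and 0.545 (C), so values of this size also occurred with mixed signs. In no other comparison were all 3 above 0.1. The intervals given at 2 weeks are nevertheless unpaired. Within these possible 2-week pairs, LDIR was the lower each time for Cdkn2c, Cdkn2b probe 1 and Cdkn1b probe 1. It was the higher each time for Cdkn2b probe 2 and Cdkn1b probe 2, and the remaining probes were mixed. These directions are a description, and the share of all probes with a single direction was not counted.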

Additional observations from a re-analysis of the deposited data

Results flagged for a closer look

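Differences between the strains in their response to LDIR at 4 weeks passed the unadjusted thresholds of the interaction test for 3 items near or upstream of the member genes, and none passed after adjustment (limma adjusted p = 0.957 for each). These were 2 of 61 partners and 1 of 13 lincRNA loci, against 3.53% of all probes. Tbx2, whose product represses the Cdkn2a locus, had an interaction of 1.32. It was at 0.22, -0.44 and -0.10 after LDIR and -0.92, -0.64 and -0.22 after sham in BALB/c, and at -1.60, -0.58 and -0.71 against -0.10, -0.12 and -0.17 in SPRET/EiJ. Without the SPRET/EiJ array with high lymphocyte markers the interaction was 1.01 and still passed the unadjusted thresholds, and with slide as a fixed block it was 0.95 and did not.

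Dmtf1, whose product activates the ARF promoter, had an interaction of -1.07. It was at -1.51, -1.76 and -1.98 after LDIR and -0.90, -1.66 and -1.18 after sham in BALB/c, and at -2.13 to -1.19 against -2.89 to -1.97 in SPRET/EiJ. Without the high-lymphocyte array it was -0.81, and it missed the thresholds without any of 7 of the 12 arrays, with a range of -1.27 to -0.77.

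The lincRNA locus chr4:88745771-88776323 on the F strand, 150 kb from Cdkn2a, had an interaction of 0.88, and its LDIR difference in BALB/c, 0.84, was called (adjusted p = 0.754). Its probe was at -4.07, -3.76 and -3.70 after LDIR and -4.94, -4.86 and -4.25 after sham in BALB/c, and at -4.78, -4.11 and -3.82 against -4.29, -4.08 and -4.20 in SPRET/EiJ. Without the high-lymphocyte array the interaction was 0.61, and it missed the thresholds without any of 9 of the 12 arrays. In BALB/c, sham arrays A and B, the lowest, lay on slide 1. Sham array C, at -4.25, and the LDIR arrays lay on slide 2, so treatment and slide are partly confounded here.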

How the results depend on the processing

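Counts of called member probes stayed at their reported value under most alternatives. At an adjusted p of 0.05 between sham glands of the strains, normexp background correction gave 1 in place of 0, Cdkn1b probe 1. At the unadjusted thresholds, the interaction gave 1 with slide as a fixed block, LDIR in BALB/c at 8 weeks gave 1 without the high-lymphocyte arrays, and 8 against 4 weeks in sham glands gave 2 with quantile normalization, 0 with slide as a fixed block and 0 within slide 2. Leaving out each array in turn gave 0 to 1 for the LDIR comparisons of SPRET/EiJ and of BALB/c at each time, for the interaction and for 4 against 2 weeks, and 1 to 2 for 8 against 4 weeks, where Cdkn1b probe 2 was added without 8-week sham array C. In SPRET/EiJ and in the interaction the added probe without LDIR array B was Cdkn2a probe 2, which is below background. The replicate block left every member count at its reported value, 1 for 8 against 4 weeks and 0 in the other 9 comparisons, and moved the count over all probes between strains from 4929 to 3193 in sham and from 3158 to 2099 in LDIR glands. Of 1544 recomputed member differences, 12 became called and 2 lost their call. Another 18 stayed uncalled but shifted by at least the SD within groups, and 1512 did none of these. Of the 1544, 129 changed sign, none of them called. Counts over all probes moved with the processing. Against 4929 and 3158 for strain they ran from 1467 to 7226 and from 1599 to 6525. For LDIR in BALB/c at 2, 4 and 8 weeks, counts of 1743, 2664 and 1005 ran from 273 to 2543, from 613 to 6082 and from 139 to 3158. In SPRET/EiJ 1225 ran from 138 to 2595, in the pooled BALB/c fit 601 ran from 67 to 999, and for the interaction 1965 ran from 706 to 3405. For 4 against 2 weeks 1692 ran from 440 to 2495, and for 8 against 4 weeks 7660 ran from 2085 to 11168. The causes were not tested. Signal over background limits Cdkn2a probe 2, which was well above it on 0 of 24 arrays.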
